A study of Mus musculus with 36 samples.

Results

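Neurosphere cells sorted as DFFDA_H were compared with neurosphere cells sorted as DFFDA_L, 4 libraries in each group, in a series that also holds 28 libraries of cells freshly sorted from the same brain region. The comparison covers every gene that reached a log2 value of 0 in 3 or more libraries of either group, 15956 of the 19909 genes in the deposited table. Both groups came from C57BL/6 mice aged 8 weeks. Cells of the subependymal zone, the stem cell niche along the lateral ventricles, were grown as neurospheres with EGF and FGF to passage 4. They were loaded with DFFDA at 2 ug/ml, cultured for 4 more days and then sorted by flow cytometry. The 2 groups shared every step before the sort. The labels do not spell out the letters H and L, nor the sorting gates, and the design text says only that the 2 populations differ in their proliferation kinetics. The labels call the libraries biological replicates without naming separate animals or cultures, so a p-value measures the spread between these libraries, which may be technical.

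A neurosphere is a floating sphere of neural stem and progenitor cells that growth factors keep dividing, and it also holds cells that divide slowly or have begun to differentiate. A dye that stays inside cells is shared between daughters at each division, so cells that have divided less keep more of it. In the intact niche, quiescent stem cells carry astroglial transcripts, leave the cell cycle reversibly and return to it through an activated state.

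Values are deposited log2 values, close to log2 CPM (reads scaled to a common library total) after quantile normalization, and every difference below is DFFDA_H minus DFFDA_L on that log2 scale. Genes that overlap others on the same or the other strand, as many named below do, may share reads with them, since the kit does not mark strand. Exact depth is unknown. The lowest value held 362 to 604 genes in DFFDA_H libraries and 365 to 515 in DFFDA_L libraries. Within a group, libraries correlated at 0.977 or more over the genes, a description only, since genes are no replicates. The first principal component held 64.3% of the variance and separated the groups, with DFFDA_H libraries between -44.3 and -41.5 and DFFDA_L libraries between 28.9 and 55.6. The normalization gives every library the same spread of values, which hides any difference in the total RNA of a cell. Longer genes were lower more often: among the genes with at least 6316 exonic bases, 550 were higher and 1306 lower in DFFDA_H (median difference -0.16), and among those with at most 1981 bases, 937 were higher and 626 lower (median 0.06). The part of transcript length in the results was not tested. Taken relative to genes of like length, the list median was -1.58 for mitotic genes and 0.78 for lysosomal genes, while some medians nearer 0 moved by over 1.5 times, such as -0.12 for imprinted genes (-0.28 as measured), -0.17 for ribosomal protein genes (-0.10) and -0.04 for the EGF receptor family (-0.19).

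The dye-sorted populations differed widely, and most plainly in the machinery of cell division. With limma and Benjamini-Hochberg adjustment, 6995 genes passed an adjusted p of 0.05 (43.8% of those tested), 3442 of them higher in DFFDA_H (21.6%) and 3553 lower (22.3%). Of these, 1837 differed by more than 2-fold. The libraries of the 2 groups did not overlap for 6222 genes (39.0%). The median difference over all genes was -0.01. When all 36 libraries of the series shared 1 estimate of the spread, 3220 genes passed (20.2%), and 3167 of them were among the 6995.

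**Figure D1:**
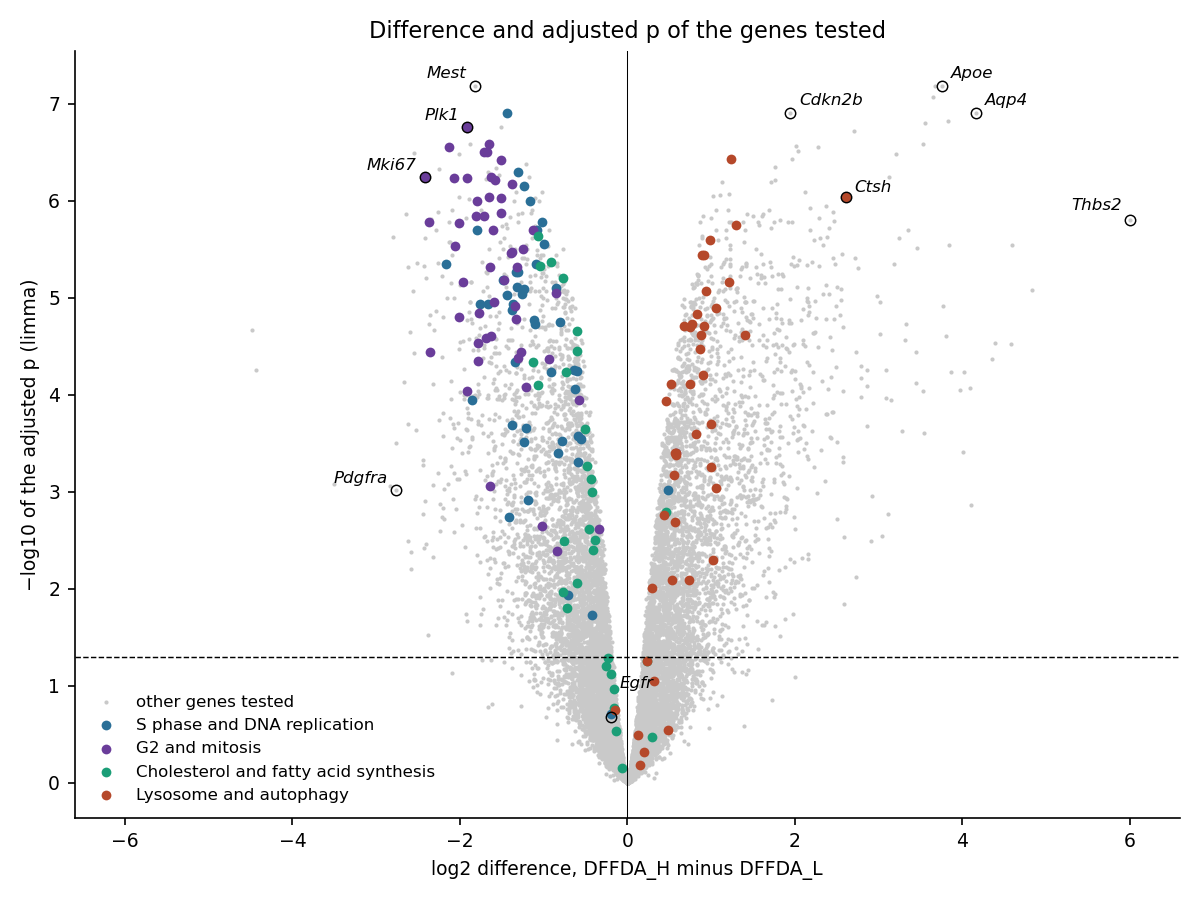
Difference between DFFDA_H and DFFDA_L (x axis, log2, positive where DFFDA_H is higher) against −log10 of the adjusted p from limma (y axis), 1 point per gene tested, with 4 gene lists in colour and an adjusted p of 0.05 as a dashed line. All but Pttg1 and Ccne1 of the mitotic and S phase genes lie on the left, and lysosomal genes mostly on the right, with Thbs2 at 6.00 the point farthest right.

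Genes of G2 and mitosis were lower almost without exception. Of 52 members tested, 51 fell and 1 rose, against a background of 22.3% and 21.6% of all genes, and the median difference was -1.63. Mki67 (chr7:135689784-135716361, GRCm38), the proliferation antigen lost on cell cycle exit, stood at 3.44, 3.45, 3.77 and 4.05 in DFFDA_H libraries, against 6.25, 6.22, 6.20 and 5.69 in DFFDA_L libraries. The groups lay far apart, with DFFDA_L library 4 the lowest of its group. The difference was -2.41 ± 0.16 (SE; adjusted p = 5.76e-07), a 5.32-fold lower level. The transcript of the mitotic kinase Plk1 had 4.07, 4.10, 3.84 and 4.14 in DFFDA_H, against 5.89, 5.99, 5.87 and 6.03 in DFFDA_L (difference -1.91 ± 0.11, adjusted p = 1.77e-07). Those of the spindle assembly factor Tpx2 (-1.65), the microtubule depolymerising kinesin Kif2c (-2.13), the anaphase activator Cdc20 (-1.68), the cytokinesis factor Racgap1 (-1.72) and the mitotic entry factor Cdca3 (-1.51) fell as well, each with no overlap between groups. The exception was Pttg1, which encodes securin, an inhibitor of sister chromatid separation. It stood at 5.96 ± 0.09 in DFFDA_H and 5.38 ± 0.15 in DFFDA_L (SD, n = 4 each; difference 0.58, adjusted p = 0.000394). The smallest fall was that of Bub3 (-0.34), a checkpoint protein. Pttg1 and Bub3 were singled out after their values were seen, and both calls were lost with the spread shared over 36 libraries, where 46 members were lower and 0 higher.

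DNA replication genes fell nearly as uniformly. Of 45 S phase members, 43 were lower and 1 higher, with a median of -1.18. Rrm2, the regulated subunit of ribonucleotide reductase, stood at 7.31, 7.32, 7.35 and 7.35 in DFFDA_H, against 8.70, 8.92, 8.83 and 8.66 in DFFDA_L. Its spread within DFFDA_H was small beside the difference of -1.44 ± 0.08 (adjusted p = 1.25e-07). Its partner subunit Rrm1 fell by 1.07. The replicative helicase subunits Mcm5 (-1.31), Mcm3 (-1.23), Mcm6 (-1.16) and Mcm7 (-1.02) fell together. Mcm7 lost its call with the spread shared over 36 libraries, where 37 members were lower and 0 higher. The exceptions, named after their values were seen, were Ccne1, which encodes cyclin E1 of the G1 to S transition and rose by 0.49, and the replication factor Gins4, at 5.33 ± 0.21 in DFFDA_H and 5.53 ± 0.14 in DFFDA_L (adjusted p = 0.193). The call of Ccne1 was lost in the 36-library fit.

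Many promoters of these genes share short elements known to drive cell cycle dependent transcription, and RefSeq promoters (250 bases before to 50 after each start, GRCm38.p6) were searched for them on both strands. The CHR element, TTTGAA or TTCGAA, is bound by the DREAM and MuvB complexes. It occurred in 36 of 47 promoters of the mitotic list (76.6%, from 44 of 52 genes matched), against 13.8% of promoters of all genes tested and 19.2% of all promoters in the table. A CCAAT box occurred in 72.3% of the mitotic promoters and 37.9% of those of all genes tested, and both elements together in 66.0% and 5.70%. An E2F site, TTTCGCG or TTTGGCG, occurred in 15 of 42 promoters of the S phase list (35.7%, from 36 of 45 genes matched), against 4.07% of promoters of all genes tested. A match describes the letters and not a bound site. Shown are the windows from 180 bases before to 20 after the start of 4 genes named above, 2 mitotic and 2 of replication, since they hold the elements. Capitals mark the CHR element in Cdc20 and Racgap1 on the strand of the gene, and the E2F site on either strand in Mcm5 and Mcm6.
Cdc20, chr4:118437324-118437523, minus strand: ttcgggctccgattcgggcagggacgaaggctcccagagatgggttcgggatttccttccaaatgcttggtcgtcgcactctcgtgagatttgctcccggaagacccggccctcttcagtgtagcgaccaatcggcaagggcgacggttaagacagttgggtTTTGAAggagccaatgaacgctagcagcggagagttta
Racgap1, chr15:99651637-99651836, minus strand: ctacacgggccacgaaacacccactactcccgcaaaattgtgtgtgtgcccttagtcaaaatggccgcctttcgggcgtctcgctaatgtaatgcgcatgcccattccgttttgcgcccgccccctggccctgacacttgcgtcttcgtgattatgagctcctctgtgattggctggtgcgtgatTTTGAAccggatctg
Mcm5, chr8:75109329-75109528, plus strand: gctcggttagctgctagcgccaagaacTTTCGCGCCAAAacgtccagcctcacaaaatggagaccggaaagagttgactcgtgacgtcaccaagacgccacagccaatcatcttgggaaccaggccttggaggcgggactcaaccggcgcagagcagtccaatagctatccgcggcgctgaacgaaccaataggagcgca
Mcm6, chr1:128359686-128359885, minus strand: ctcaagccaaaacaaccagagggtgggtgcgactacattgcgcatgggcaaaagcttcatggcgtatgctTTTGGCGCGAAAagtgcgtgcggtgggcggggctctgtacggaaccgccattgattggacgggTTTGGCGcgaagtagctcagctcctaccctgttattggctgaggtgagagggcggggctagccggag
The element of Cdc20 begins at position -18 from the start and that of Racgap1 at position 6 after it. The longer run of capitals in each of Mcm5 and Mcm6 is a pair of E2F matches on opposite strands that overlap, and Mcm6 holds a further match. The windows of Plk1 and Cdca3 held no CHR element and those of Rrm2, Mcm3, Mcm7 and Rrm1 no E2F site in these letters, though all 6 genes fell.

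Upstream regulators of the cycle moved unevenly. Among 21 G1 cyclins, kinases, E2F factors and pocket proteins, 12 fell and 3 rose (median -0.24), and 5 fell and 0 rose in the 36-library fit. The share called was 71.4%, beside 43.8% of all genes. The activator E2f2 stood at 1.13 ± 0.43 in DFFDA_H and 3.56 ± 0.14 in DFFDA_L (SD, n = 4 each; difference -2.43), the atypical repressor E2f7 fell by 2.66 on the log2 scale, and the kinase Cdk2 fell by 0.72. The difference of E2f7, low in DFFDA_H at 0.06 ± 0.83, was -1.86 after a pseudocount of 1. The growth factor driven D cyclins differed little. Ccnd1 had 10.97, 10.998, 11.10 and 11.31 in DFFDA_H, against 11.18, 10.97, 10.97 and 10.97 in DFFDA_L, and the groups overlapped (difference 0.07, adjusted p = 0.528). Ccnd2 was higher by 0.29 (adjusted p = 0.0259), with overlapping groups, and lost its call without any 1 of 4 libraries (DFFDA_H 3, DFFDA_H 4, DFFDA_L 2 or DFFDA_L 3), in the 36-library fit (adjusted p = 0.414) and without the trend and robust options (adjusted p = 0.0805).

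Of 6 CDK inhibitor genes tested, 3 rose and 1 fell, 66.7% called beside 43.8% of all genes. The rises were largest for the neighbouring pair of the INK4 locus. Cdkn2b (chr4:89306299-89311039), which encodes p15INK4b, an inhibitor of CDK4 and CDK6, had 6.78, 6.87, 6.96 and 6.84 in DFFDA_H, against 4.82, 4.96, 4.72 and 5.16 in DFFDA_L. All 4 DFFDA_H libraries stood above all DFFDA_L libraries, by 1.95 ± 0.10 (3.86-fold, adjusted p = 1.25e-07). Its neighbour Cdkn2a (chr4:89274471-89294653), whose transcripts encode p16INK4a and p19ARF and are not told apart here, had 6.33, 6.11, 6.26 and 6.09 in DFFDA_H, against 4.98, 5.01, 4.89 and 5.19 in DFFDA_L. The difference was 1.18 ± 0.10 (adjusted p = 2.02e-06). Cdkn1a, which encodes the p53 target p21, stood at 9.74, 9.66, 9.98 and 9.95 in DFFDA_H, against 9.60, 9.04, 9.14 and 9.53 in DFFDA_L, a narrow separation (0.50 ± 0.12, adjusted p = 0.00558). Cdkn2c, which encodes p18INK4c, fell by 0.82. Cdkn1b (p27) stood at 5.36 ± 0.11 in DFFDA_H and 5.62 ± 0.21 in DFFDA_L (adjusted p = 0.0743), and passed, lower, without DFFDA_L library 2 (difference -0.36). Cdkn2d (p19INK4d) stood at 5.87 ± 0.07 in DFFDA_H and 6.01 ± 0.15 in DFFDA_L (adjusted p = 0.250). Cdkn1c was under the filter on low values. The calls of Cdkn2a and Cdkn1a were lost, leaving 1 rise and 1 fall, with the spread shared over 36 libraries.

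**Figure D2:**
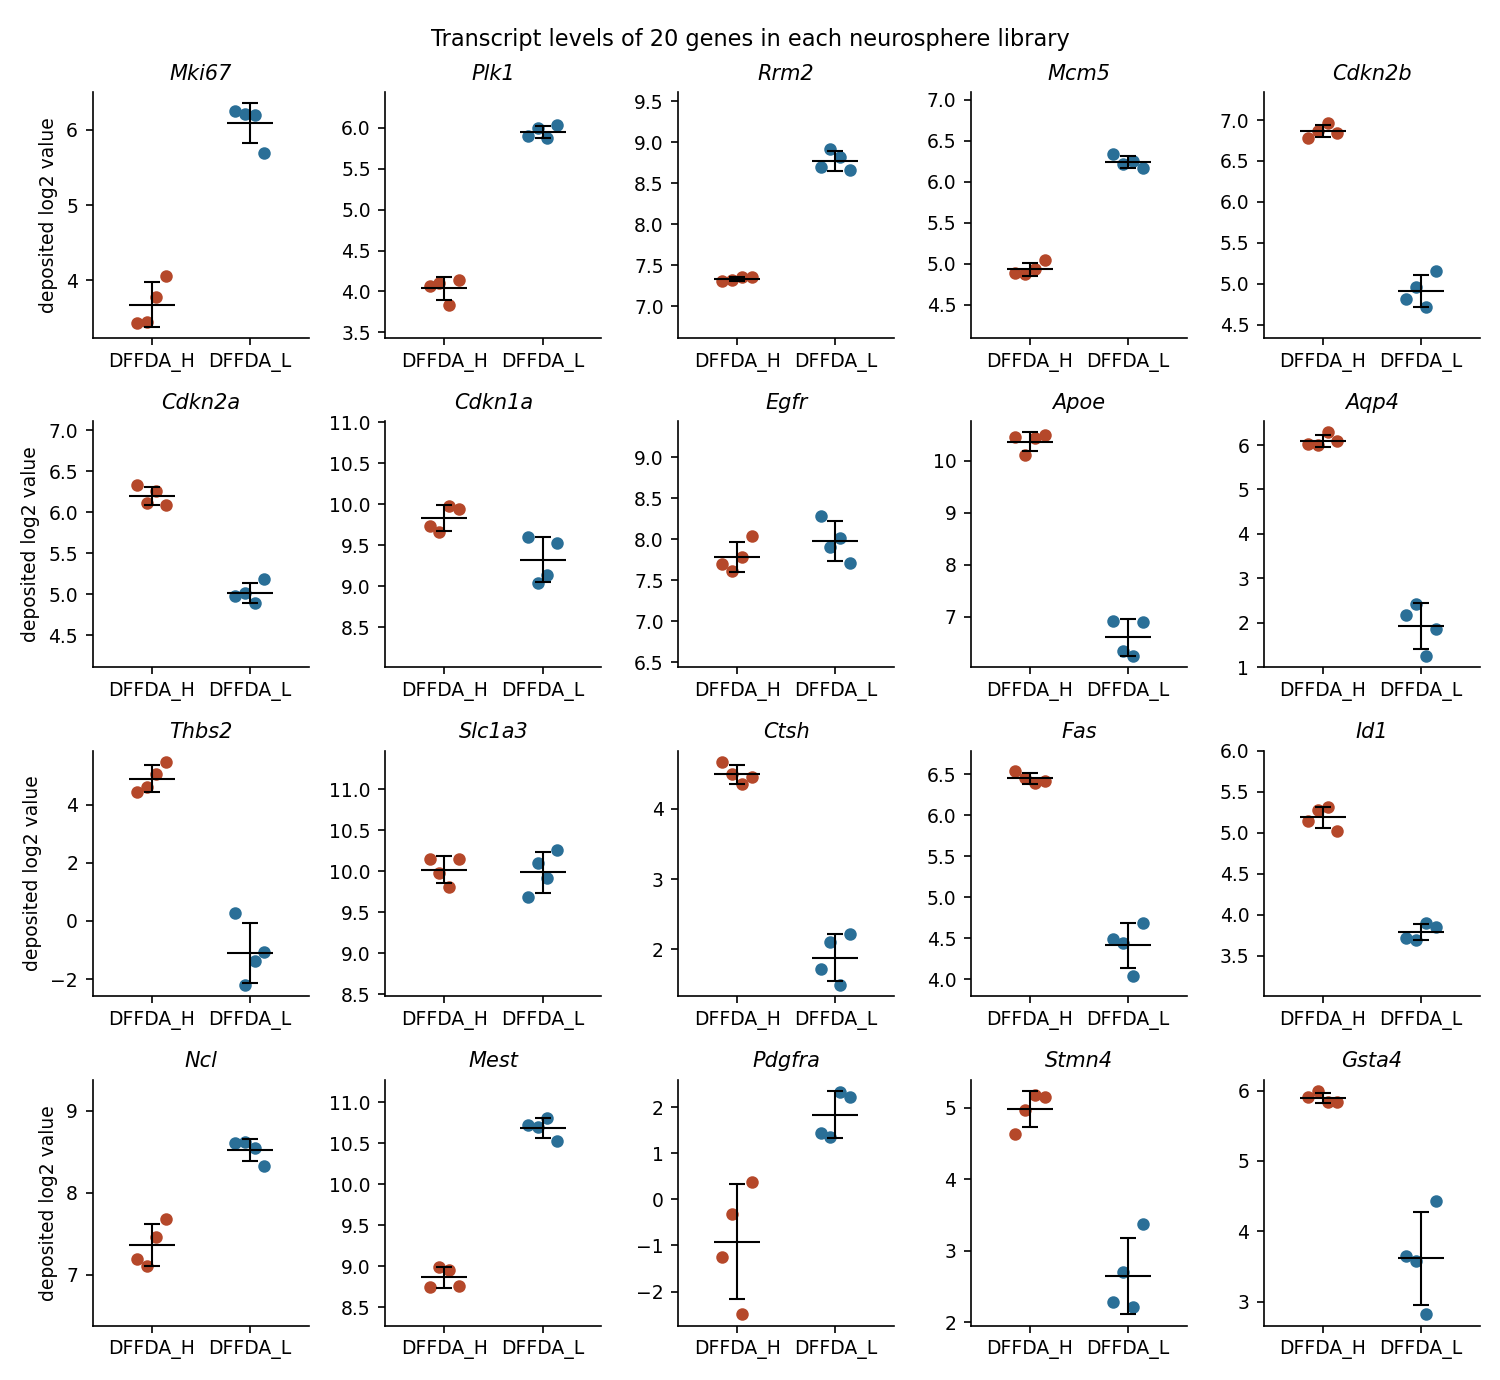
Deposited log2 value (y axis, a range of its own for each gene) of 20 genes in the 4 DFFDA_H and 4 DFFDA_L libraries (x axis), 1 point per library, with the group mean and SD in black. The groups lie apart for 18 of the genes and overlap for Egfr and Slc1a3.

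Genes induced by p53 tended to be higher and the Myc network was divided. Of 25 p53 targets, 16 rose and 2 fell (median 0.41), and in the 36-library fit 7 rose and 1 fell. The death receptor gene Fas had 6.54, 6.45, 6.39 and 6.42 in DFFDA_H, against 4.49, 4.45, 4.04 and 4.68 in DFFDA_L. The separation was wide (2.04 ± 0.13, adjusted p = 3.09e-07). The stress genes Gadd45a and Gadd45b rose by 1.18 and 1.90, and the difference of Gadd45b was 1.05 after a pseudocount of 1. Plk2, a kinase that p53 also induces, fell by 0.87. In the Myc network, 3 of 12 members rose and 5 fell (median -0.05), against 2 and 2 in the 36-library fit. The share called was 72% among p53 targets and 66.7% in the Myc network, beside 43.8% of all genes. Mycn, the Myc gene of neural progenitors, fell by 1.07, and the Myc antagonists Mxd4 and Mxd1 rose by 0.67 and 0.62.

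**Figure D3:**
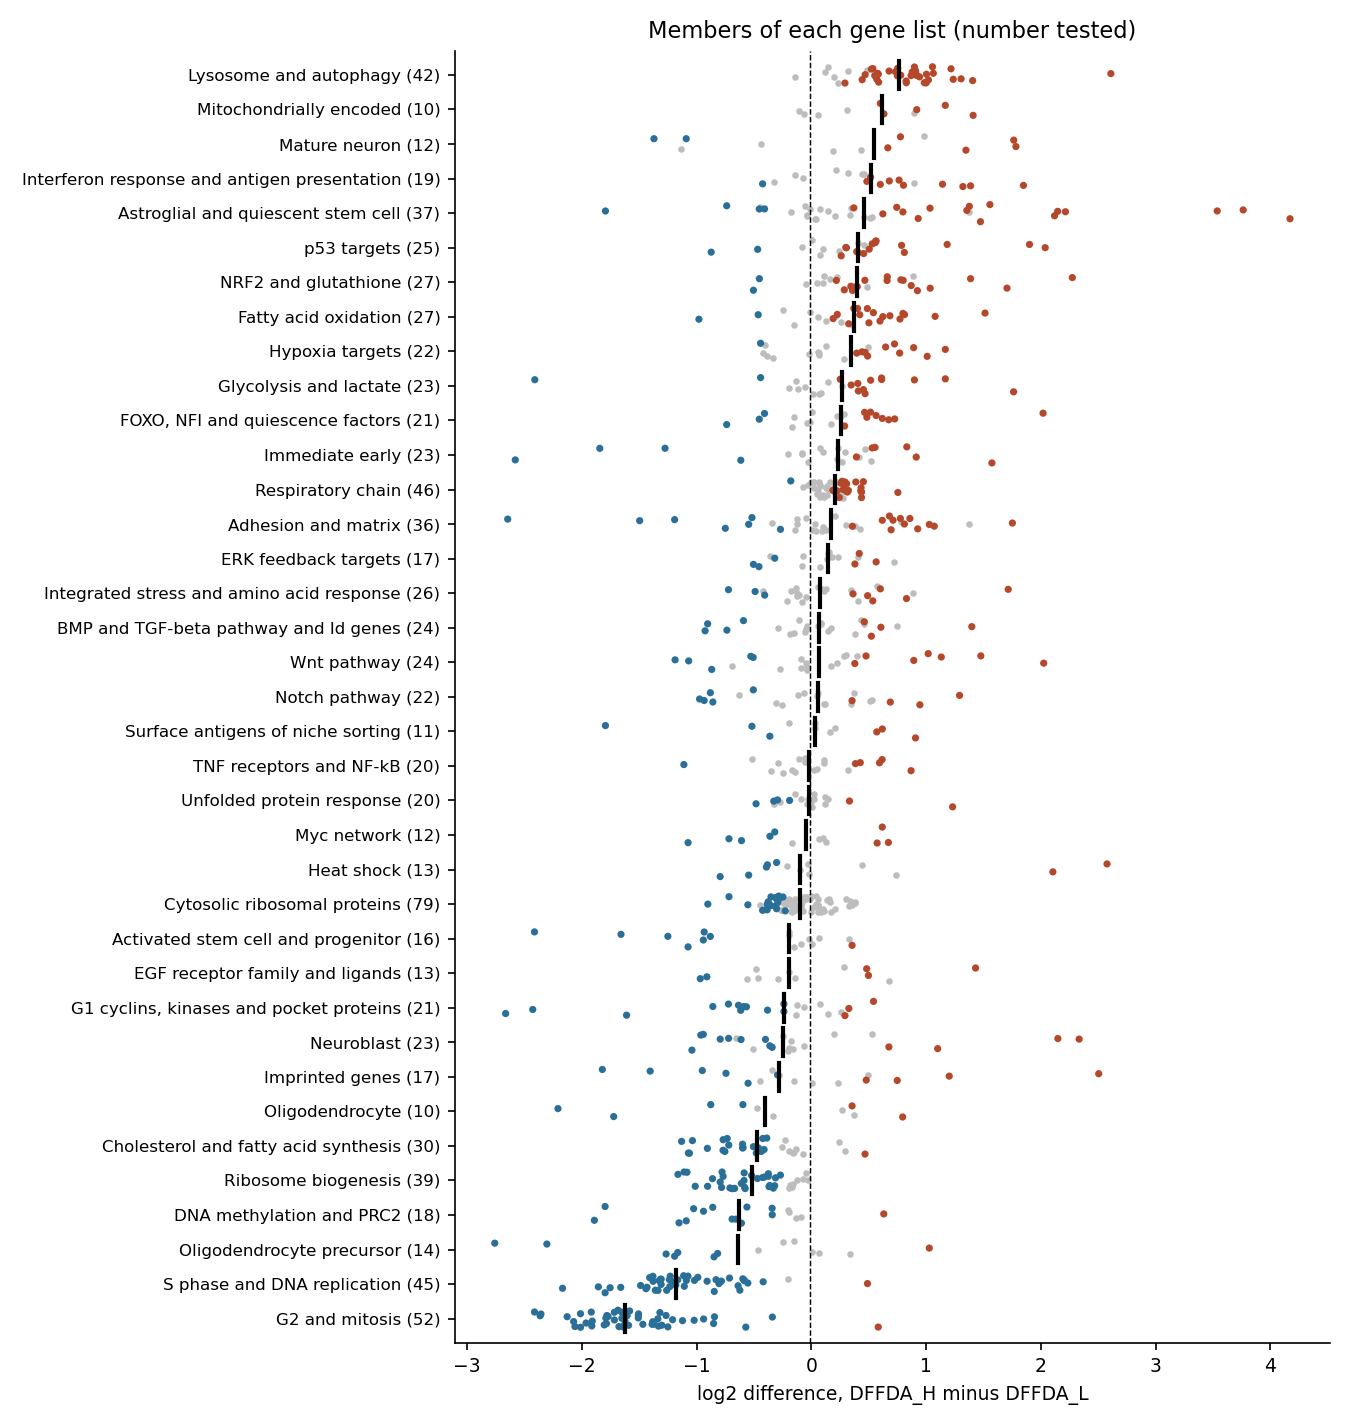
Difference between DFFDA_H and DFFDA_L (x axis, log2) of each member of the lists with at least 10 members tested (y axis, number tested in brackets), red where higher at an adjusted p under 0.05, blue where lower, grey where not passed, with the list median as a bar and the median of all genes (-0.01) dashed. The list medians run from 0.77 for lysosomal genes to -1.63 for mitotic genes.

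The 12 largest rises, among called genes with a mean of at least 3.5 in the higher group and no overlap between groups, included 3 members of the astroglial list, Aqp4, Apoe and Clu. Thbs2, which encodes the matrix protein thrombospondin 2, had 4.45, 4.62, 5.06 and 5.49 in DFFDA_H, against 0.27, -2.21, -1.37 and -1.08 in DFFDA_L. It was near the detection limit in DFFDA_L, and its difference of 6.00 ± 0.43 (adjusted p = 1.58e-06) was 4.34 after a pseudocount of 1. The water channel gene Aqp4 had 6.02, 5.99, 6.28 and 6.08 in DFFDA_H, against 2.16, 2.43, 1.25 and 1.86 in DFFDA_L (4.17 ± 0.21, adjusted p = 1.25e-07). Apoe, which encodes the lipid carrier apolipoprotein E, had 10.45, 10.11, 10.43 and 10.50 in DFFDA_H, against 6.93, 6.35, 6.25 and 6.91 in DFFDA_L. It was among the abundant transcripts and apart in all libraries, and the difference was 3.76 ± 0.15 (13.6-fold, adjusted p = 6.54e-08). The cholesterol exporter Abca1, which loads lipid onto apolipoprotein E, rose by 3.65, and the lipid-binding chaperone clusterin, Clu, by 3.54. The glutathione transferase Gstt3 (3.83), the AMPA receptor subunit Gria1 (3.67), the zinc transporter Slc39a12 (3.56), the oncostatin M receptor Osmr (3.46), Fam110c (3.35), the protocadherin Pcdhb9 (3.13) and Klhl4 (2.98) completed the 12. The differences of Osmr and Fam110c were 2.79 and 2.63 after a pseudocount of 1. Pcdhb9 and Gstt3 belong to clusters of similar genes, between which reads could have been shared.

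**Figure D4:**
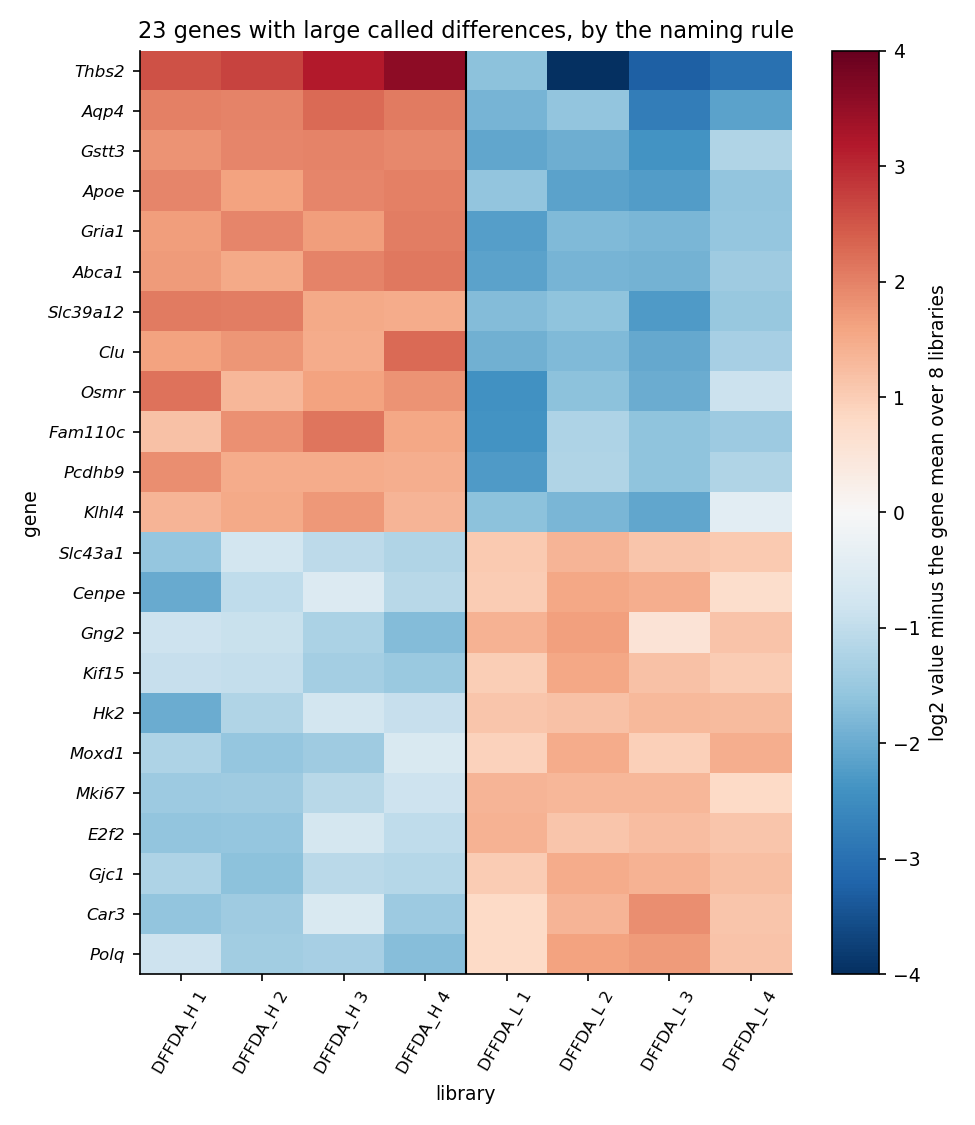
Log2 value minus the gene's mean over the 8 libraries (colour) of the 12 genes with the largest rises and 11 of those with the largest falls under the naming rule (y axis), in each library (x axis, DFFDA_H on the left). Every gene has 1 colour on the left and the other on the right.

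Among 11 of the largest falls by the same rule, cell division genes stood beside genes of other kinds. The DNA repair polymerase Polq fell by 2.62, the kinesins Kif15 and Cenpe both by 2.36, and E2f2 and Mki67 as given above. The others were the carbonic anhydrase Car3, the connexin Gjc1, Moxd1, the hexokinase Hk2, the G protein subunit Gng2 and the amino acid transporter Slc43a1. Car3 had 7.31, 7.47, 8.28 and 7.44 in DFFDA_H, against 9.71, 10.25, 10.75 and 9.998 in DFFDA_L, so that its highest DFFDA_H library stayed below its lowest DFFDA_L library (difference -2.55). Gjc1 fell by 2.55, Moxd1 by 2.41, Gng2 by 2.36 and Slc43a1 by 2.28. The call of Moxd1 was lost with the spread shared over 36 libraries.

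Astroglial and quiescent stem cell genes rose in part. Of 37 members tested, 16 rose and 4 fell (median 0.46), and 14 rose and 4 fell in the 36-library fit. The share called was 54.1%, beside 43.8% of all genes, and 21.6% of all genes were higher. The summed level of the list on the linear CPM scale was 8719 to 10768 in DFFDA_H and 6753 to 7953 in DFFDA_L. Apoe, with mean log2 values of 10.37 in DFFDA_H and 6.61 in DFFDA_L, made a large part of that gap. Without Apoe the sums of the groups would overlap. Beside Apoe, Aqp4 and Clu, the secreted protease Htra1 stood at 6.996 ± 0.13 in DFFDA_H and 4.88 ± 0.36 in DFFDA_L (SD, n = 4 each; difference 2.12), and the protease inhibitor Cst3 rose by 0.80. The glutamate transporter Slc1a3, abundant in astroglia and niche stem cells, had 10.15, 9.98, 9.81 and 10.15 in DFFDA_H, against 9.68, 10.10, 9.92 and 10.26 in DFFDA_L. The groups overlapped (difference 0.03, adjusted p = 0.855). The stem cell factor Sox2 (0.06, adjusted p = 0.821), the intermediate filament gene Nes (-0.17, 0.642), the tetraspanin Cd9 (0.03, 0.821) and Id3 (0.15, 0.235) did not pass either, and Gfap was under the filter on low values. Prom1, which encodes the CD133 antigen of stem cells, had 1.2, 0.93, 1.18 and 0.66 in DFFDA_H, against 2.37, 3.35, 3.01 and 2.42 in DFFDA_L. It was low in both groups and lower in DFFDA_H, without overlap (difference -1.79 ± 0.25, adjusted p = 0.000106). Nfib, a transcription factor of quiescent stem cells, fell by 0.74.

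Markers of activated progenitors fell in part. Of 16 members, 7 fell and 1 rose (median -0.19), against 22.3% of all genes lower. The share called was 50%, beside 43.8% of all genes. Mki67 and Cdk1, both among the falls, are also counted in the mitotic list. The replication factor Pclaf fell by 1.66 and the progenitor factor Sox11 by 0.94. The EGF receptor gene Egfr had 7.69, 7.61, 7.78 and 8.04 in DFFDA_H, against 8.28, 7.90, 8.01 and 7.71 in DFFDA_L, with overlap (difference -0.19, adjusted p = 0.208). Olig2 did not pass (difference -0.15, adjusted p = 0.607).

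Among 23 neuroblast markers the share called was 56.5%, beside 43.8% of all genes. Of the 23, 4 rose and 9 fell (median -0.25), and 3 rose and 5 fell in the 36-library fit. The summed level of the neuroblast markers was 2340 to 2827 in DFFDA_H and 3362 to 3760 in DFFDA_L, without overlap. The abundant Sox11 (difference -0.94), also counted among the activated progenitor markers, made a large part of that gap. Whether the sums without Sox11 would overlap was not tested. The microtubule regulator Stmn1, also tied to proliferation, fell by 1.04, while its relative Stmn4 stood at 4.98 ± 0.25 in DFFDA_H and 2.65 ± 0.53 in DFFDA_L (SD, n = 4 each; difference 2.33), and Mapt, which encodes tau, and the GABA enzyme Gad1 rose by 1.1 and 2.15. The surface antigen Cd24a fell by 0.36 (adjusted p = 0.0134), a call lost in the 36-library fit, and Dcx was under the filter. Of 14 markers of oligodendrocyte precursors, 7 fell and 1 rose (median -0.64), 57.1% called, with 4 lower in the 36-library fit. Among those lower were the matrix proteins Tnr (-2.30) and Vcan (-1.19) and the factor Sox6 (-0.85). Pdgfra, the receptor that defines these precursors, had -1.25, -0.31, -2.50 and 0.38 in DFFDA_H, against 1.43, 1.35, 2.33 and 2.23 in DFFDA_L. The precursor markers summed to 2499 to 3928 in DFFDA_H and 2711 to 4111 in DFFDA_L, with overlap. Pdgfra was low in all 8 libraries, and its difference of -2.76 ± 0.51 (adjusted p = 0.000969) was -1.51 after a pseudocount of 1. The call was lost in the 36-library fit. In these bulk libraries, fewer cells of a type and less RNA per cell cannot be told apart.

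Markers of other cell types of the brain were scarce. Summed over each list, on the linear CPM scale, microglial markers gave 107 to 118 in DFFDA_H and 78.3 to 91.5 in DFFDA_L. Only 5 of 20 passed the filter on low values, 3 of the 20 were at the lowest value in all 8 libraries, and 1 of the 5 was called, higher. Endothelial markers gave at most 24.4 in DFFDA_H and 19.1 in DFFDA_L, with 3 of 16 tested. Limma called 0 of the 3, and 0 had an unadjusted p under 0.05. Red cell markers gave at most 3.10 in DFFDA_H and 3.22 in DFFDA_L. Mural markers gave 37.9 to 58.7 in DFFDA_H and 34.9 to 57.9 in DFFDA_L, with 5 of 10 in the table tested, of which 1 rose and 2 fell (0 and 0 in the 36-library fit). Ependymal markers gave 55.0 to 59.6 in DFFDA_H and 23.6 to 30.1 in DFFDA_L, without overlap. Rarres2 alone gave 31.0 to 41.8 in DFFDA_H and 7.48 to 8.38 in DFFDA_L. There 5 of 15 in the table were tested, 3 rose and 1 fell (2 and 0 in the 36-library fit), with Rarres2, which encodes chemerin, higher by 2.28 and Fam183b, of motile cilia, by 2.15 (1.1 after a pseudocount of 1). The dynein gene Dnah11 was the one that fell (-1.18), a call lost in the 36-library fit. Markers of mature neurons gave 134 to 226 in DFFDA_H and 89.2 to 131 in DFFDA_L. Kcnc1, with overlapping groups at mean log2 values of 6.64 and 5.97, made a large part of both sums. Of 12 tested, 5 were higher, among them the scarce vesicle protein gene Syt4 by 1.78. The 2 lower were Syt1 (-1.37) and Rbfox3 (-1.09), and 2 were higher and 0 lower in the 36-library fit. Oligodendrocyte markers gave 357 to 396 in DFFDA_H and 310 to 418 in DFFDA_L, and 2 of 10 were higher and 4 lower (1 and 0 in the 36-library fit). The share called was 58.3% among neuron markers, 60% among oligodendrocyte and mural markers and 80% among ependymal markers. It was 20% among microglial markers and 43.8% among all genes. The part of such cells in the other differences was not tested.

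In most of the signalling lists the share of members called was near or under the 43.8% of all genes: 38.5% in the EGF receptor family, 35.3% among ERK feedback targets, 43.5% among immediate early genes, 40.9% in the Notch pathway, 33.3% in the BMP and TGF-beta pathway, 30% among TNF receptors and NF-kB factors and 50% in the Wnt pathway. The values below are therefore those of single members. In the EGF receptor family 3 of 13 members rose and 2 fell (1 and 0 in the 36-library fit). The ligand gene Hbegf had 7.76, 7.82, 8.02 and 7.87 in DFFDA_H, against 6.66, 6.43, 6.11 and 6.56 in DFFDA_L, and the groups lay apart (1.43 ± 0.11, adjusted p = 1.36e-06). Lrig1, a negative regulator of the receptor, stood at 6.71 ± 0.15 in DFFDA_H and 6.42 ± 0.34 in DFFDA_L (adjusted p = 0.131), and passed, higher, without DFFDA_L library 1 (difference 0.45). Of 17 feedback targets of the ERK pathway, 3 were higher and 3 lower, and 0 of either in the 36-library fit. Of 23 immediate early genes, 6 were higher, such as the phosphatase Dusp1 (0.83), and 4 lower, such as the nuclear receptor Nr4a1 (-1.84), against 1 higher and 1 lower in the 36-library fit. In the Notch pathway 4 of 22 rose and 5 fell (1 and 2 in the 36-library fit). The presenilin Psen2 was higher by 1.29, and the coactivators Maml1 and Maml2 were lower by 0.97 and 0.86. In the BMP and TGF-beta pathway 4 of 24 rose and 4 fell (2 and 2 in the 36-library fit). Id1, a BMP target that blocks bHLH factors, had 5.14, 5.28, 5.31 and 5.03 in DFFDA_H, against 3.72, 3.69, 3.90 and 3.85 in DFFDA_L. The difference of 1.4 ± 0.12 (adjusted p = 2.70e-06) stood beside one of 0.15 for Id3, which did not pass, and the receptor Tgfbr1 fell by 0.74.

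In the Wnt pathway 7 of 24 members rose and 5 fell (3 and 1 in the 36-library fit), with the secreted modulator Dkk3 higher by 2.02, the receptor Fzd5 by 1.48 and the coreceptor Lrp5 lower by 1.07. Among TNF receptors and NF-kB factors 5 of 20 rose and 1 fell (3 and 1 in the 36-library fit). Tnfrsf1a, the main TNF receptor, stood at 5.43, 5.29, 5.56 and 5.66 in DFFDA_H, against 5.02, 4.27, 4.48 and 4.69 in DFFDA_L, close but apart (0.87 ± 0.15, adjusted p = 0.000531). The subunit gene Nfkb1 fell by 1.11. Interferon and antigen presentation genes gave 10 of 19 higher and 1 lower (median 0.52), and 3 higher and 0 lower in the 36-library fit. The class I light chain B2m rose by 0.76, Ifi27 by 1.32 and the GTPase Gbp2 by 1.85, the call of Gbp2 being lost in that fit. Of 21 FOXO, NFI and other quiescence factors, 9 rose and 3 fell (6 and 3 in the 36-library fit). The share called was 57.9% in the interferon list and 57.1% among quiescence factors, beside 43.8% of all genes. The PI3 kinase inhibitor Pik3ip1 had 6.04, 6.05, 6.14 and 6.17 in DFFDA_H, against 4.21, 4.03, 3.78 and 4.31 in DFFDA_L, well apart (2.02 ± 0.12, adjusted p = 2.75e-07). Sesn3, which restrains mTORC1, rose by 0.73.

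Genes that build ribosomes and lipids were lower. Of 39 ribosome biogenesis factors, 31 fell and 0 rose (median -0.52), and 16 fell in the 36-library fit. The nucleolar protein gene Ncl had 7.19, 7.11, 7.46 and 7.68 in DFFDA_H, against 8.60, 8.61, 8.54 and 8.32 in DFFDA_L. The groups did not overlap (difference -1.16 ± 0.12, adjusted p = 8.63e-06). The pseudouridine synthase Dkc1 (-1.08) and the snoRNP factors Nolc1 (-1.01) and Nop58 (-0.78) fell too. Ncl and Nop58 carry snoRNA genes in their introns. Ribosomal protein genes moved less, with 18 of 79 lower, 0 higher and a median of -0.10, a share near the 22.3% of all genes, and 2 lower in the 36-library fit. Rpl4 fell by 0.72. These genes have many processed pseudogenes, with which reads could have been shared. Of 30 genes of cholesterol and fatty acid synthesis, 20 fell and 1 rose (median -0.47). The fatty acid elongase Elovl6 had 6.08, 6.08, 6.00 and 5.99 in DFFDA_H, against 7.25, 7.15, 7.17 and 6.87 in DFFDA_L, well apart (difference -1.07 ± 0.09, adjusted p = 2.34e-06). The sterol enzymes Lss (-1.04), Fdps (-0.77) and Hmgcs1 (-0.60) fell with it.

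Lysosomal genes rose almost as a block. Of 42 genes of lysosomes and autophagy, 35 rose and 0 fell (median 0.77), against 21.6% of all genes higher, and 32 rose in the 36-library fit. The cathepsin gene Ctsh had 4.67, 4.49, 4.36 and 4.45 in DFFDA_H, against 1.72, 2.11, 1.49 and 2.21 in DFFDA_L. The difference of 2.61 ± 0.19 (6.11-fold, adjusted p = 9.18e-07) was the largest of the list. The hexosaminidase Hexa (1.24), the membrane protein Cln3 (1.31), the cathepsin Ctsl (0.98) and the autophagosome protein Gabarap (0.92) rose without overlap between groups.

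Genes of fatty acid oxidation rose more often than the 21.6% of all genes. Of 27 fatty acid oxidation genes, 17 rose and 2 fell (median 0.37), with the mitochondrial dehydrogenase Acadvl at 0.80 and the trifunctional protein subunit Hadhb at 0.77. In the 36-library fit, where 1601 of all 15956 genes were higher, 10 rose. Of 46 nuclear genes of the respiratory chain, 20 rose and 1 fell (median 0.20), among them Sdhc (0.44), Ndufa1 (0.75) and Cox5b (0.44), but the 5 that rose in the 36-library fit are a share near that of all genes. Of 10 mitochondrially encoded transcripts, 5 rose and 0 fell, including mt-Co1 (0.60), mt-Nd4 (0.92) and mt-Nd2 (1.17). Of 23 glycolytic genes, 12 were higher and 2 lower. Hk2, the inducible hexokinase, had 1.56, 2.36, 2.83 and 2.64 in DFFDA_H, against 4.65, 4.71, 4.83 and 4.82 in DFFDA_L. It was lower in all 4 DFFDA_H libraries (difference -2.41 ± 0.23, adjusted p = 6.32e-06), and Ldha fell by 0.44, whereas the glucose transporter Slc2a3 (0.90), the phosphofructokinase Pfkp (0.61) and the pyruvate dehydrogenase kinase Pdk1 (1.17) rose. Hypoxia targets gave 10 of 22 higher and 1 lower, including the mitophagy receptor Bnip3 (1.01), the prolyl hydroxylase P4ha1 (0.65) and the oxidase Ero1l (0.72). In the 36-library fit, 6 glycolytic genes and 5 hypoxia targets rose. Pdk1 and Ldha are counted in both lists. The share called was 60.9% among glycolytic genes and 50% among both hypoxia targets and mitochondrially encoded transcripts, beside 43.8% of all genes.

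Antioxidant genes rose more often than they fell. Of 27 genes of the NRF2 and glutathione list, 17 rose and 2 fell (median 0.40), and 10 rose in the 36-library fit. The glutathione transferase gene Gsta4 had 5.91, 5.99, 5.84 and 5.84 in DFFDA_H, against 3.65, 3.58, 2.82 and 4.43 in DFFDA_L. The DFFDA_L libraries were spread, all below DFFDA_H (2.27 ± 0.25, adjusted p = 3.23e-05). Gstm1, of a cluster of similar genes, rose by 1.71, the heme oxygenase Hmox1 by 1.39 and the peroxiredoxin Prdx6 by 0.87. Of 13 heat shock genes, 2 rose, the small heat shock proteins Cryab (2.58) and Hspb8 (2.1), and 5 fell, among them the chaperones Hsp90ab1 (-0.79) and Hspd1 (-0.55), and 2 fell in the 36-library fit. In the amino acid and integrated stress response 6 of 26 rose, such as the stress protein Nupr1 (1.72) and the transporter subunit Slc3a2 (0.54), and 3 fell, such as the folate enzyme Shmt2 (-0.49). In the 36-library fit 4 of the 26 rose and 1 fell. Of 20 genes of the unfolded protein response, 2 rose and 4 fell, with the cochaperone Dnajb9 higher by 1.23 and the chaperone Hspa5 lower by 0.48. The share called was 34.6% in the integrated stress list and 30% in the unfolded protein list, both under the 43.8% of all genes. It was 53.8% among heat shock genes.

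Chromatin enzymes coupled to replication fell. Of 18 genes of DNA methylation and Polycomb complex 2, 13 fell and 1 rose (median -0.63), against 22.3% of all genes lower. In the 36-library fit 10 fell and 1 rose. Uhrf1, which recruits the maintenance methyltransferase, fell by 1.80, Dnmt1 itself by 1.15, the remodeller Hells by 1.03 and the histone methyltransferase Ezh2 by 0.94. The dioxygenase gene Tet1 fell too (difference -1.09). Of 17 imprinted genes, 4 rose and 6 fell (3 and 2 in the 36-library fit), with 58.8% called beside 43.8% of all genes. Mest, expressed from the paternal allele in embryonic tissue, had 8.75, 8.99, 8.96 and 8.76 in DFFDA_H, against 10.72, 10.69, 10.81 and 10.52 in DFFDA_L. The groups lay apart (difference -1.82 ± 0.09, adjusted p = 6.54e-08), and Copg2, which overlaps it and fell by 1.45 on the log2 scale, cannot be fully separated from it without strand. Snrpn rose by 0.48. Of 36 adhesion and matrix genes, 12 rose and 7 fell (5 and 3 in the 36-library fit), with 52.8% called beside 43.8% of all genes. The laminin Lama4 fell by 2.65 (difference -1.86 after a pseudocount of 1) and the fibronectin gene Fn1 by 1.5, while the integrin Itgb8 and the metalloproteinase inhibitor Timp3 rose by 0.86 and 0.68.

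The contrast was then set against its counterpart in the niche, freshly sorted qNSC minus aNSC (4 libraries each, labelled only by these names), and the difference between the 2 differences was tested over 18229 genes. The 2 contrasts share no libraries. Of these genes 8709 passed (47.8%), 4774 with a more positive difference in culture (26.2%) and 3935 with a more negative one (21.6%). The median over all genes was 0.14. Cell cycle genes fell less in culture: the median was -1.63 in culture and -4.79 in the niche for the mitotic list, and -1.18 and -4.01 for the S phase list. The difference passed upward for 48 of 52 mitotic members, with 1 downward, and 44 of 45 S phase members. For Mki67 the niche difference was -5.22, and culture minus niche was 2.81 ± 0.32 (adjusted p = 1.56e-06). Of the 37 astroglial genes tested in culture, 30 passed downward and 4 upward, with medians of 0.46 in culture and 3.04 in the niche. Id3 (0.15 in culture, 3.71 in the niche) was among the 30. Gfap, outside the 37 since it was under the filter in culture, differed by 0.28 and 4.96 (culture minus niche -4.68). Ribosomal protein genes had medians of -0.10 in culture and -1.66 in the niche, and 76 of 79 passed upward.

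Several regulators passed in the niche and not in culture, and the difference between both settings passed as well. Ccnd1 differed by 0.07 in culture and -4.16 in the niche (culture minus niche 4.23), Egfr by -0.19 and -2.73 (2.53), Olig2 by -0.15 and -3.85 (3.70) and Nes by -0.17 and -3.24 (3.07). Cdkn1a was called in opposite directions, by 0.50 in culture and -4.20 in the niche (4.70, adjusted p = 3.95e-06), and so was Ccnd2, by 0.29 and -4.18 (4.47), both with a call in culture that the 36-library fit did not keep. For Cdkn1b, Cdkn2a, Sox2 and Pdgfra the difference between culture and niche did not pass. Cdkn2a was near the lowest value in the niche, at -3.92 ± 1.19 in qNSC and -3.54 ± 0.90 in aNSC (SD, n = 4 each), and its difference of 1.57 (adjusted p = 0.0847) passed in 4 of 21 alternatives (without qNSC library 1, 2.15; without aNSC library 1, 1.96; with library weights, 2.38; with values below 0 set to 0, 1.18), with adjusted p-values over all of them from 5.86e-05 to 0.172. Of 30 cholesterol and fatty acid synthesis genes, 19 passed downward and 2 upward, with medians of -0.47 in culture and 0.18 in the niche. Lysosomal genes were higher in both settings (medians 0.77 and 1.52), with 24 of 42 passing downward and 4 upward. The qNSC libraries were shallower, with 1159 to 3932 genes at their lowest value, so that differences of scarce genes in the niche depend more on that limit.

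**Figure D5:**
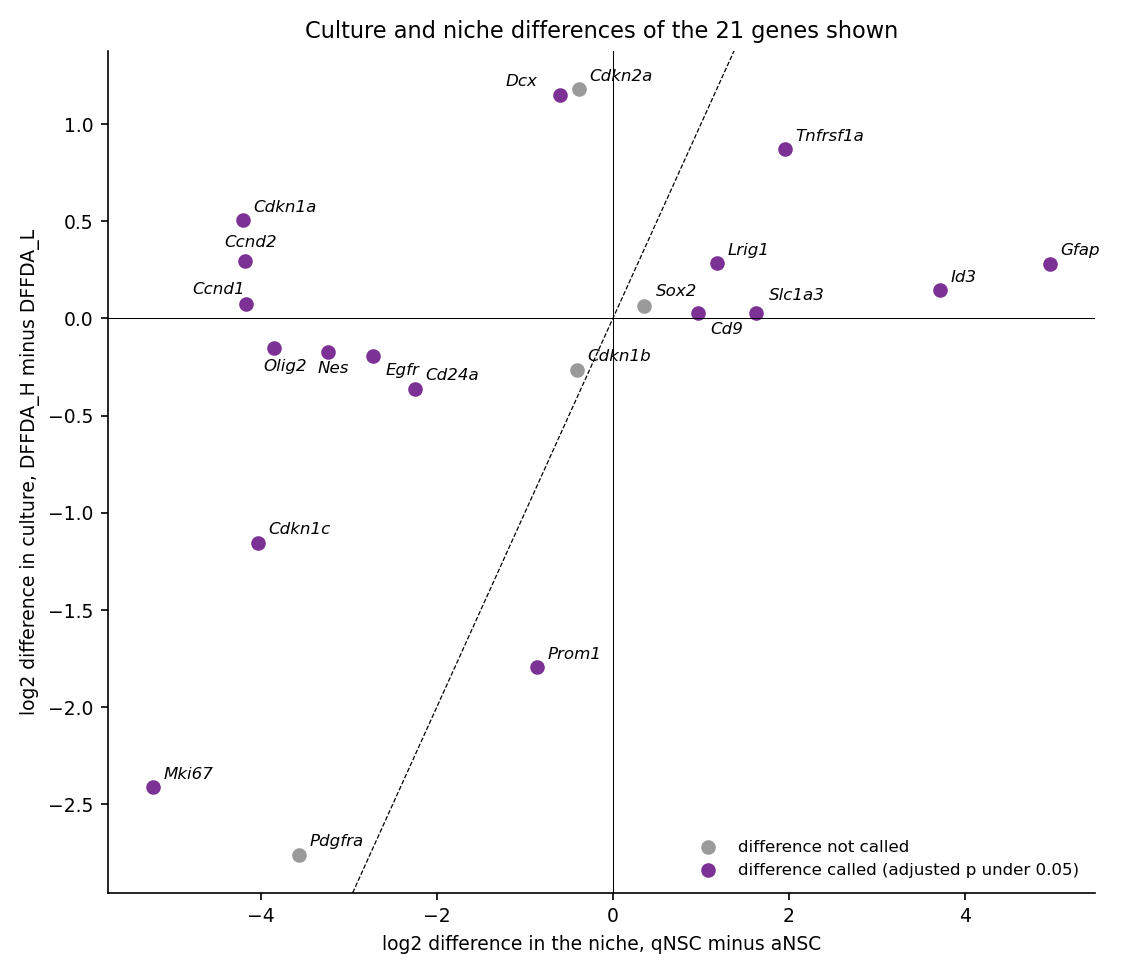
Difference in culture, DFFDA_H minus DFFDA_L (y axis, log2), against the difference in the niche, qNSC minus aNSC (x axis, log2), for 21 genes named under the rule whatever their change. The dashed line marks equal differences, and purple marks the 17 genes whose differences passed as unequal, such as Mki67, Cdkn1a, Ccnd1 and Gfap.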

How the data were processed

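RNA-seq libraries were made from poly(A) RNA with the SMARTer Ultra Low and Nextera XT kits and read on an Illumina NextSeq, per the labels' protocols. HISAT2 and featureCounts, with GRCm38 (mm10), FastQC, Trimmomatic, cutadapt and limma, are listed without versions or roles per the submitters' processing notes. Log2 values of 19909 genes in 36 libraries were deposited by the authors as a single table. The values look like quantile normalized log2 CPM, a reading taken from the values themselves, and raw counts were not used here, so exact depth is unknown and no counting interval is given.

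Genes with a value of at least 0 in 3 libraries of either group were tested with limma 3.58.1 (R 4.3.3; moderated with trend and robust options) on the 8 neurosphere libraries, with Benjamini-Hochberg adjustment and a threshold of 0.05. A second fit on 16 libraries, including qNSC and aNSC, tested the difference between both differences. Each fit was tested on simulated data. Named genes were a fixed set, of which 21 are reported, the 12 strongest rises and 12 strongest falls (no overlap, no provisional symbol, and a mean reaching 3.5 in the group with more), and the 6 or fewer members of each list with the smallest p. Members and lists were chosen with earlier results of these data known. A few genes that the rule names are not reported here. Alternatives changed the filter, pseudocount, centring, weights, moderation, block and libraries.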

Additional observations from a re-analysis of the deposited data

Results flagged for a closer look

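In 12 of the 314 groups of 4 libraries behind the 157 genes looked at, 1 library stood apart from the other 3, and chance gives about 1 in 20 groups. The DFFDA_H libraries concerned were replicate 1 for Pcdhb9 (6.49) and Ccne1 (6.28), both above the others, replicate 2 for Apoe (10.11, below the others), replicate 3 for Car3 (8.28, above) and replicate 4 for Kif2c (2.96, below). The DFFDA_L libraries concerned were replicate 4 for Mki67 (5.69, below), Vcan (5.16, below) and Hadhb (6.66, above), replicate 1 for Ccnd1 (11.18, above), Cdkn2d (5.78, below) and Syt4 (-0.29, below), and replicate 2 for Tpx2 (6.83, above). For Ccnd1 the other 3 DFFDA_L libraries held the same value (10.97), so that any different value would have been flagged.

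The difference in culture, DFFDA_H minus DFFDA_L, was unlike the difference in the niche, qNSC minus aNSC, for 17 of the 21 genes followed in both, by limma's test of the difference itself. Culture minus niche was positive for Mki67 (2.81), Cdkn1a (4.70), Cdkn1c (2.88), Ccnd1 (4.23), Ccnd2 (4.47), Egfr (2.53), Cd24a (1.88), Nes (3.07), Olig2 (3.70) and Dcx (1.75). It was negative for Slc1a3 (-1.60), Cd9 (-0.94), Prom1 (-0.93), Gfap (-4.68), Id3 (-3.57), Tnfrsf1a (-1.09) and Lrig1 (-0.90). Cdkn1c, Gfap and Dcx were under the filter in the neurosphere libraries alone. The calls of Cdkn1c, Prom1, Dcx and Lrig1 were lost when single libraries were left out.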

How the results depend on the processing

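Of 154 tested genes named or followed here, 135 kept direction and call in every alternative, and so did 15 of 21 in the comparison of culture with niche. The 6995 calls became 4318 (2138 higher, 2180 lower) over genes whose mean reached 4, where fewer genes were tested, and 3220 (1601 higher, 1619 lower) in the 36-library fit, for which the cause was not tested. Leaving out single libraries gave 5691 to 6954 calls, 2873 to 3472 higher and 2818 to 3482 lower, fewest without DFFDA_L library 3. The 8709 calls of culture against niche became 5447 over genes whose mean reached 4, with 2192 lower, and 8084 to 9852 without single libraries (4369 to 5623 higher, 3697 to 4229 lower). The replicate block gave 6864 calls and 8669 calls. Deviations of same-numbered libraries from their group means had r of -0.09, 0.24, 0.15 and -0.00. DFFDA_H libraries 2 and 3 correlated best with the DFFDA_L library of the same number. DFFDA_H libraries 1 and 4 did so with DFFDA_L libraries 2 (0.32) and 1 (0.34). With 4 libraries in each group, these values cannot show whether the numbers pair them.

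Differences near 0 changed sign. Slc1a3 was -0.040 with library weights. Without single libraries, Slc1a3 lay between -0.072 and 0.12, Cd9 between -0.026 and 0.093, Sox2 between -0.10 and 0.27, Nes between -0.37 and 0.065, and Olig2 between -0.32 and 0.078. Culture minus niche for Pdgfra ran over -0.38 to 1.79. Lrig1 passed, higher, with library weights (0.33). Exact depth is unknown, and the lowest value limits scarce genes such as Thbs2, Pdgfra and E2f7.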
